A study of Mus musculus with 12 samples.

Results

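The cytosolic ribosomal protein genes are described here through the ERα and PR peaks at their ends. Members were the protein-coding genes of the RefSeq annotation equivalent to mm10 whose symbol is Rpl or Rps followed by a number and at most one of the letters a, x, y or l, which gave 77 of 21887 coding genes. Of these, 47 encode proteins of the large ribosomal subunit (Rpl) and 30 of the small subunit (Rps). A member was called as having a gene-end peak in a library when the summit of a deposited peak lay within 1 kb of either end of the gene. The rule uses symbols and no measured value.

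Cytosolic ribosomal proteins are the structural proteins that, with the ribosomal RNAs, form the ribosome. Their genes are active in nearly all cells, are among the most heavily transcribed, and mostly begin in CpG-rich promoters bound by general factors such as ETS proteins, SP1 and YY1. Many of their mRNAs start with a C followed by a run of pyrimidines, the terminal oligopyrimidine (TOP) tract, through which mTOR signalling controls their translation. ERα and PR are steroid receptors that act as ligand-bound transcription factors, ERα at the estrogen response element and PR at the element it shares with the glucocorticoid receptor.

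ChIP-seq of ERα and PR was performed on whole mammary glands of 2 genotypes: wild-type at Esr1 (WT), and Esr1 with the substitution Y541S in the receptor's ligand-binding domain. All mice were raised to 8 weeks of age, received estradiol and progesterone (E2+P4) implants, and were sampled 4 days later, so the WT glands were hormone-treated as well. The 8 libraries comprised 2 biological replicates of each combination of receptor and genotype; 4 further samples, labelled D542G, were not analysed here. The labels state neither the zygosity of Y541S nor how many animals each replicate held, so the spread given is that between these libraries. The title of the series names luminal cells, whereas the labels give whole glands, which also hold basal, fat, stromal and immune cells, and the cells behind a peak are not known. The lists held 64488 to 113695 peaks. The lowest local expectation of coverage, recovered from the deposited fold and p-value as a measure of depth, ranged from 0.927 to 2.68 reads and was higher in replicate 1 than in replicate 2 of every group.

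The 250 bases upstream of the RefSeq start are printed for 5 members, 5′ to 3′ in the direction of transcription (RefSeq, GRCm38.p6). These bases do not hold every summit. In all 8 libraries the strongest summit of Rpl27 lay downstream of the start, as did the ERα summits of Rps2. For Rpl15 the ERα summits at −331 and −296 bp (WT) and −343 bp (Y541S replicate 1) lay further upstream. Rpl27 (chr11:101441995-101442244, plus strand) had the best-ranked peaks of all members. Rpl37a (chr1:72711010-72711259, plus strand) stood high in the lists of both receptors. Rpl15 (chr14:18270987-18271236, minus strand) ranked highest for ERα and lower for PR. Rps2 (chr17:24719813-24720062, plus strand) had no gene-end peak but had peaks at this inner start. Rpl39l (chr16:10169978-10170227, plus strand) had no peak in any library. Capitals mark matches on either strand to AGGTCA (a half-site of the estrogen response element), AGAACA (a half-site of the PR element), CCGGAAG (ETS), GGGCGG (SP1), AAGATGGCG (YY1), TCTCGCGA and TATAAA.
Rpl27: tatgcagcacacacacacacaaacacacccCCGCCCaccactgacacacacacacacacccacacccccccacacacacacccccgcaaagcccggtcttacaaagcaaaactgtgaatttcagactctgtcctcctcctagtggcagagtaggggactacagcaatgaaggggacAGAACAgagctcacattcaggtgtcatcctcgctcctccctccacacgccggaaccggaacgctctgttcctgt
Rpl37a: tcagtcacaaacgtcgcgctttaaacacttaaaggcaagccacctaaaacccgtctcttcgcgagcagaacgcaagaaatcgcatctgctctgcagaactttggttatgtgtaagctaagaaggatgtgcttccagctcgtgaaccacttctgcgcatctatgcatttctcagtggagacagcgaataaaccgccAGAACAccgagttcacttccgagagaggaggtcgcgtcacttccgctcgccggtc
Rpl15: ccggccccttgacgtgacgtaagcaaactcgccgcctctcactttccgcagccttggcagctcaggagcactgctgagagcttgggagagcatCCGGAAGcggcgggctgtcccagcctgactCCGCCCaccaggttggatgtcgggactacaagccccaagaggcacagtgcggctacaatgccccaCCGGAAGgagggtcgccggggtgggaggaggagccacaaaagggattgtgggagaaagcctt
Rps2: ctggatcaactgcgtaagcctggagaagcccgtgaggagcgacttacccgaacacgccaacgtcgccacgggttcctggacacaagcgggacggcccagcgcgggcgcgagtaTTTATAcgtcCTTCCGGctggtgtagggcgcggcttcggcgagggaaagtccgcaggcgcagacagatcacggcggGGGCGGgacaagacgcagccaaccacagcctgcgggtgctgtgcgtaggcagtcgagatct
Rpl39l: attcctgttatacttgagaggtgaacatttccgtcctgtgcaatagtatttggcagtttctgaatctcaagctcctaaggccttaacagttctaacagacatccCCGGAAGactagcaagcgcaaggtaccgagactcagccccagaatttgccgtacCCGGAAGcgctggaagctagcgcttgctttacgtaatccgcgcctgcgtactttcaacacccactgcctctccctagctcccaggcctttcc

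Of the 77 members, 58 had an entry in the RefSeq promoter table, which covers 250 bases before to 50 after the start. Both strands were searched. Complete estrogen response elements (GGTCA and TGACC separated by 3 bases) were found in 0 of the 58 member windows and in 10 of 17492 windows of coding genes. The half-site AGGTCA was found in 12.1% of member windows and 14.5% of all, and the half-site AGAACA in 17.2% and 16.4%. The PR element (ACA and TGT separated by 3 bases, with a G beginning 2 bases before or a C ending 2 bases after) was found in 0 member windows and in 2.80% of all. Some letters of general promoter motifs were more frequent among members: CCGGAAG stood in 37.9% of member windows (22) against 11.9% of all, and TCTCGCGA in 15.5% (9) against 1.53%. The margin was small for GGGCGG, in 55.2% (32) against 46.3%. AAGATGGCG stood in only 3 member windows (5.17% against 1.92%). TATAAA stood in 10.3% against 13.3%. A C followed by at least 4 pyrimidines began exactly at the listed start in 20.7% of members and 2.17% of all genes. The median GC content of the windows was 56.5% and 56.3%, and the ratio of observed to expected CpG was 0.851 in members and 0.577 overall. These are matches of letters in a short window and not measured binding sites. No match says only that the letters are not in this window. Matches of different motifs may overlap.

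Most ribosomal protein genes had an ERα and a PR peak at a gene end in every library. In ERα libraries the WT glands had one at 69 and 69 of the 77 members and the Y541S glands at 69 and 71, which is 89.6% ± 0 and 90.9% ± 1.84 (SD, n = 2). In PR libraries the numbers were 62 and 70 in WT and 72 and 69 in Y541S, which is 85.7% ± 7.35 and 91.6% ± 2.75 (SD, n = 2). Among all coding genes the share with a gene-end peak was 49.3 and 47.7% in ERα WT, 55.7 and 56.2% in ERα Y541S, 42.0 and 53.4% in PR WT, and 54.4 and 56.4% in PR Y541S. The member share thus exceeded the share of all coding genes by between 33.2 and 41.9 percentage points in each of the 8 libraries. The library with the fewest member peaks, PR WT replicate 1, also had the fewest coding genes with a peak.

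**Figure D1:**
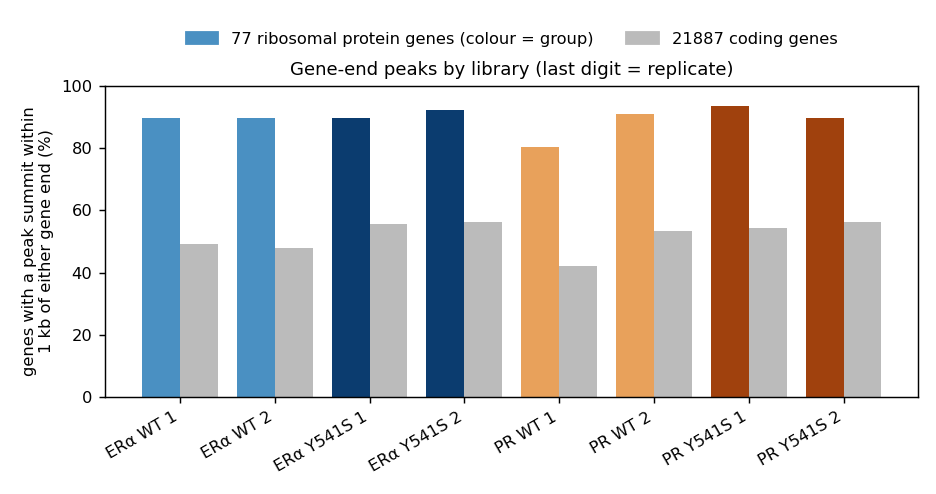
Percentage of genes with a peak summit within 1 kb of either end, by library (x axis, ERα then PR, WT then Y541S, replicates 1 and 2). Coloured bars are the 77 ribosomal protein genes and grey bars the 21887 coding genes; coloured bars lie between 80.5 and 93.5% and grey bars between 42.0 and 56.4%.

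Members are short genes, with a median span of 3164 bp against 17169 bp for all coding genes. Coding genes no longer than the longest member (11774 bp) had gene-end peaks less often than coding genes as a whole, with group means of 38.2% in ERα WT, 43.8% in ERα Y541S, 37.9% in PR WT and 43.4% in PR Y541S. Of the members, 28 had an end of another coding gene within 1 kb of one of their own ends. The other 49 members carried gene-end peaks at similar rates, on average 42 and 43.5 of 49 for ERα in WT and Y541S and 41.5 and 43.5 of 49 for PR.

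Both libraries of a group had a gene-end peak at 68 members for ERα in WT (41.2% of coding genes), 69 in Y541S (49.7%), 60 for PR in WT (38.1%) and 69 in Y541S (50.4%). Across the libraries, 58 members (75.3%) had a gene-end peak in all 8, against 30.6% of all coding genes. All 4 ERα libraries had one at 67 members (39.2% of coding genes), and all 4 PR libraries at 60 (36.5% of coding genes). By subunit, the members with a peak in all 8 libraries were 34 of 47 Rpl (72.3%) and 24 of 30 Rps (80%). A further 11 members had a peak in 7 libraries. Leaving out PR WT replicate 1 raised the count in all remaining libraries to 66. That library had the lowest share of coding genes with a gene-end peak, 42.0%. The counts of 11 and 66 have no share of coding genes beside them and are no result about the members.

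No member had a gene-end peak in both Y541S libraries and neither WT library, for ERα or for PR, whereas 3.03% and 2.40% of coding genes did. No member had the reverse pattern either (0.356% and 0.361% of coding genes). Likewise 0 members had a peak in all 4 ERα and no PR library (0.206% of coding genes) and 0 in all 4 PR and no ERα library (0.407%). With a background this low, counts of 0 among 77 genes lie near it and are no result about the members. The share of members with a peak was 1.3 percentage points higher in Y541S than in WT for ERα (0 within replicate 1 and 2.60 within replicate 2). For PR it was 5.84 points higher (12.99 within replicate 1 and −1.3 within replicate 2). Over all coding genes the differences were 7.43 and 7.68 points, of the same sign within both replicates. Same-numbered libraries are compared here by number alone, since the labels do not say whether they share chromatin or a day of work. The ERα share of members exceeded the PR share by 3.90 points in WT (9.09 and −1.3 within replicates 1 and 2) and differed by −0.649 points in Y541S (−3.90 and 2.60), so neither difference had 1 sign. No test was run on these member counts, and 2 libraries against 2 could not give an exact permutation p below 0.33.

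How high the peaks stood in their lists differed between the receptors. The strongest gene-end peak of a member lay at a median of 10.5 and 7.24% of the list in ERα WT and 4.32 and 3.13% in ERα Y541S, where 0% is the strongest peak by the authors' p-value. In PR the medians were 34.3 and 18.4% in WT and 36.0 and 17.9% in Y541S. For all coding genes with a gene-end peak the medians were 25.8, 19.4, 16.2 and 11.7% in the same order for ERα and 40.2, 27.4, 38.6 and 26.5% for PR. Median deposited fold enrichments of the member peaks were 4.69 and 4.95 in ERα WT, 6.08 and 6.09 in ERα Y541S, 3.67 and 5.91 in PR WT and 5.59 and 6.72 in PR Y541S. The median fold over all coding genes was 3.84, 4.16, 4.39 and 4.64 in the ERα libraries and 3.47, 5.13, 5.35 and 5.63 in the PR libraries, in the same order. Member folds were thus not lower for PR in replicate 2; their places in the lists were.

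**Figure D2:**
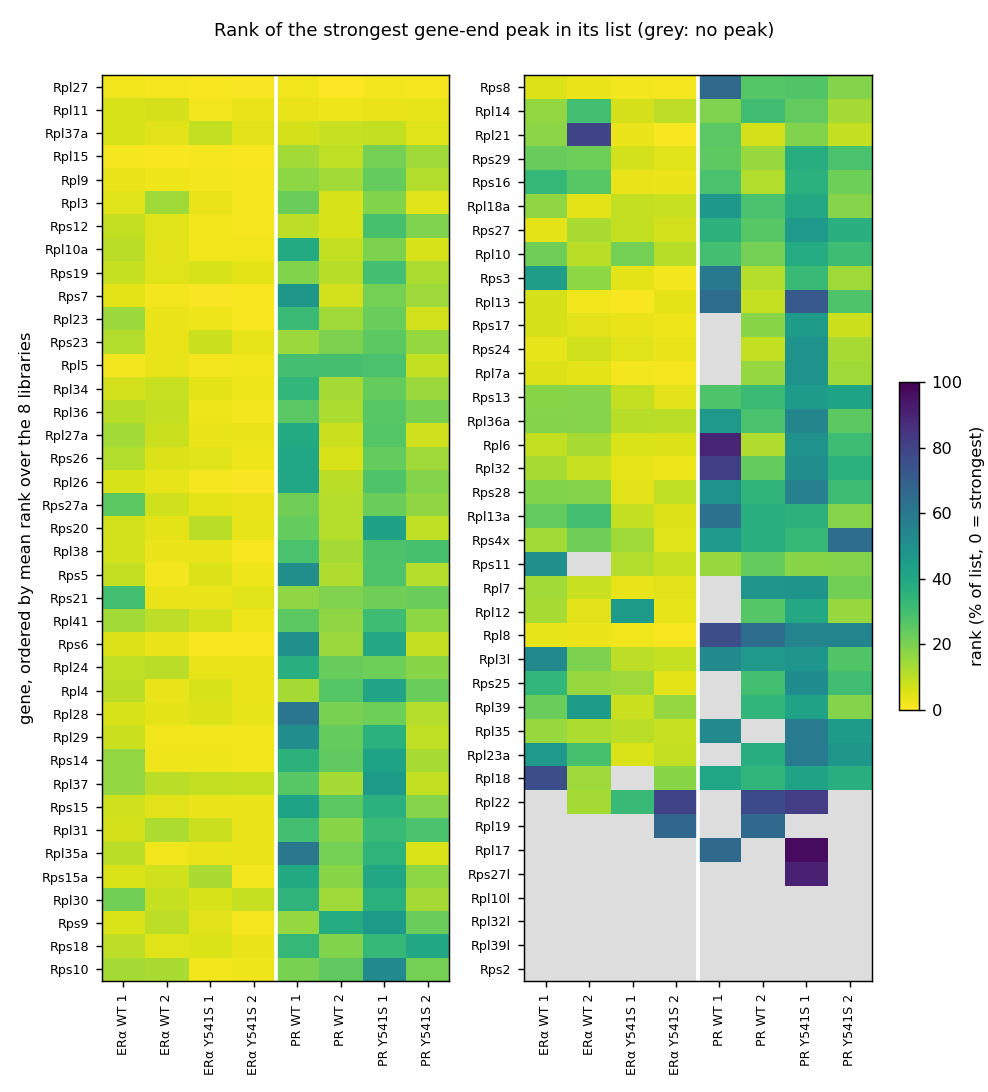
Rank of the strongest gene-end peak of each of the 77 members (rows, ordered by mean rank) in each library (columns), as a percentage of the list with 0 as the strongest; grey cells have no peak. The ERα columns left of the white line are mostly yellow (under 20%), the PR columns right of it are mostly green to blue, and the 4 bottom rows of the right panel are empty.

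Because lists of different length cannot be compared by rank, the 20000 strongest peaks of each library were also taken. Among them, 61 and 67 members had a gene-end peak for ERα in WT and 66 and 69 in Y541S, against 26.3, 31.2, 30.6 and 36.3% of coding genes. For PR there were 17 and 41 in WT and 3 and 43 in Y541S, against 9.64, 20, 6.31 and 20% of coding genes. Every ERα library had more members than every PR library. Replicates 1 and 2 of PR differed more than the genotypes did, and the replicate 1 libraries with few members were also the deeper ones (2.68 and 2.45 against 0.927 and 1.35 reads of background coverage). The part of depth in this difference was not tested. In PR Y541S replicate 1 the 3 members were 3.90% of the 77, near the 6.31% of coding genes, and are no result about the members. Between genotypes the ERα counts overlapped only narrowly (61 and 67 against 66 and 69), and the share of coding genes differed in the same direction within both replicates.

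**Figure D3:**
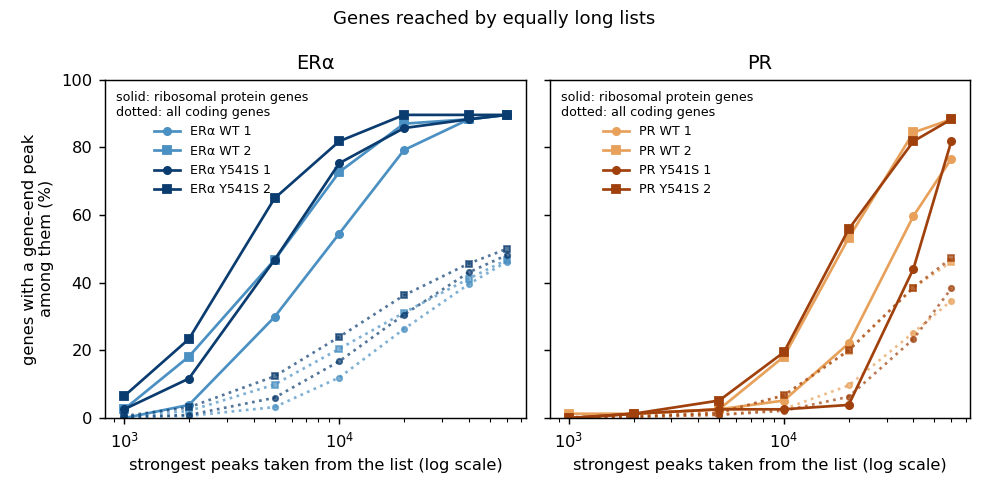
Percentage of genes with a gene-end peak among the strongest peaks of a list (y axis) against the number of peaks taken (x axis, log scale, 1000 to 60000), for ERα (left) and PR (right). Solid lines are ribosomal protein genes and dotted lines all coding genes, circles replicate 1 and squares replicate 2; at 5000 peaks ERα reached 29.9 to 64.9% of members and PR 2.60 to 5.19%.

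In all 4 ERα lists of 20000 peaks 57 members recurred (17.4% of coding genes). In all 4 PR lists 3 did, Rpl11, Rpl27 and Rpl37a (3.52% of coding genes). These 3 are 3.90% of the 77, near the share of coding genes, and are no result about the members. The PR number rested on Y541S replicate 1, without which it was 11, against 5.85% of coding genes. There were 9 members in all 4 ERα and none of the PR lists, against 3.28% of coding genes, namely Rpl7, Rpl8, Rpl32, Rpl35, Rpl36a, Rps4x, Rps13, Rps27 and Rps28. Without PR WT replicate 2 or PR Y541S replicate 2 there were 16 and 17, against 5.47 and 5.32% of coding genes. The reverse class was empty (0.416% of coding genes).

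The same order appeared gene by gene in lists cut to 60000 peaks. Of the members with a gene-end peak in both, ERα gave the better rank in 52 of 58 and 61 of 67 in WT (replicates 1 and 2) and in 61 of 62 and 68 of 68 in Y541S. Among all coding genes ERα gave the better rank in 77.3 and 75.2% in WT and 88.3 and 84.3% in Y541S. A better ERα rank was thus the common case at gene ends, and the more so among the members. Between genotypes, Y541S gave the better ERα rank for 52 of 68 and 46 of 68 members (63.2 and 57.8% of coding genes) and the better PR rank for 16 of 54 and 33 of 67 (37.0 and 50.5%).

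Rpl27, whose product belongs to the large subunit, was the best-ranked member (gene ID 19942, chromosome 11, 101442245 to 101445596). Its fold enrichment for ERα was 9.99 and 8.13 in WT and 11.2 and 9.69 in Y541S. For PR it was 11.1 and 19.5 in WT and 20.5 and 16.3 in Y541S. Every library placed it within the first 2.14% of its list. The receptors differed in position here: the strongest PR summits lay 13 to 28 bp downstream of the 5′ end in all 4 libraries, while ERα summits lay 60 and 244 bp downstream in WT and 283 and 283 bp in Y541S. Coverage at the summit was 36 to 70 reads for ERα and 58 to 141 reads for PR.

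Rpl11, which encodes a large-subunit protein that also binds Mdm2 when ribosome assembly is disturbed, ranked second (chromosome 4, 136049354 to 136053393). Its fold enrichment was 5.38 and 4.91 in the WT and 8.10 and 5.84 in the Y541S libraries of ERα, against 8.42 and 9.61 in the WT and 13.6 and 11.2 in the Y541S libraries of PR. These are the strongest peaks, and for the receptors they stood at opposite ends of the gene. ERα summits lay 85 to 260 bp downstream of the 5′ end, and the strongest PR summits 833 to 861 bp beyond the 3′ end in all 4 libraries. Each PR library also had a weaker peak at the start, with summits at −102 and 106 bp and folds of 3.13 and 3.90 in WT, and at −43 and −28 bp with folds of 3.33 and 4.68 in Y541S. The high PR rank of Rpl11 belongs to the downstream peak, since those at the start ranked at 28.1 to 54.4% of their lists.

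Rpl37a (chromosome 1, 72711260 to 72713813), a large-subunit zinc-finger protein gene, had ERα folds in WT of 6.65 and 5.87, and in Y541S of 5.31 and 6.39. Its PR folds were 8.24 and 9.09 in WT and 11.6 and 11.0 in Y541S. The ERα folds of the genotypes overlapped. Both PR folds were higher in Y541S, as was the median PR fold of all coding genes (5.35 and 5.63 against 3.47 and 5.13 in WT). The summits of both receptors lay between 206 bp upstream and 51 bp downstream of the 5′ end. Folds were not scaled between libraries, so these values describe each list.

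Rpl15, a large-subunit gene (chromosome 14, 18267823 to 18270986), stood highest for ERα, within the first 1.45% of every ERα list. Its folds were 12.0 and 9.75 in WT and 8.69 and 8.68 in Y541S. For PR its folds were 5.52 and 7.96 in WT and 8.11 and 7.45 in Y541S, at 9.69 to 20.7% of the list. The strongest summit of each library lay 114 to 343 bp upstream of the 5′ end, and Nkiras1 has an end 150 bp from the gene. Rpl9, also of the large subunit, showed the same order, at 1.3 to 3.36% of ERα and 11.4 to 23.5% of PR lists, and an end of Lias lies 66 bp from it.

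Rpl3, Rps12 and Rpl10a completed the 8 best-ranked members. Rpl3, a large-subunit protein close to the peptidyl transferase centre, ranked at 1.39 to 14.3% of ERα and 4.81 to 22.4% of PR lists. Rps12, of the small subunit, ranked at 1.34 to 9.20% and 6.19 to 29.2%. Rpl10a ranked at 2.24 to 10.4% and 5.92 to 38.8%. For each of the 3 the poorest PR rank was in a replicate 1 library. Rpl8, singled out after its values were seen, had the widest gap among members with 8 peaks: its ERα peaks ranked at 1.13 to 3.76% of the list with folds of 6.21 and 6.14 (WT) and 7.04 and 7.75 (Y541S), and its PR peaks at 55.0 to 76.2% with folds of 2.66 and 3.35 (WT) and 3.94 and 3.5 (Y541S).

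Summits gathered around the 5′ end. For the 58 members with a known strand, 94.1 to 96.2% of the strongest ERα gene-end peaks and 84.8 to 92.3% of the PR peaks were nearer to the 5′ than to the 3′ end. Among all coding genes with a strand these shares were 88.9 to 90.4% and 84.2 to 89.7%. Within 250 bp of the 5′ end lay 75 to 84.9% of the ERα and 65.2 to 82.7% of the PR peaks of members, against 54.8 to 60.2% and 50.8 to 63.6% over all coding genes. The median summit of the 5′ peaks was 29.5 to 55 bp downstream of the 5′ end in the 4 ERα libraries and 10 to 67 bp upstream in the 4 PR libraries, so the ranges did not overlap. Over all coding genes the medians ran from −2 to 17 bp for ERα and from −19 to 4 bp for PR, ranges that did overlap.

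**Figure D4:**
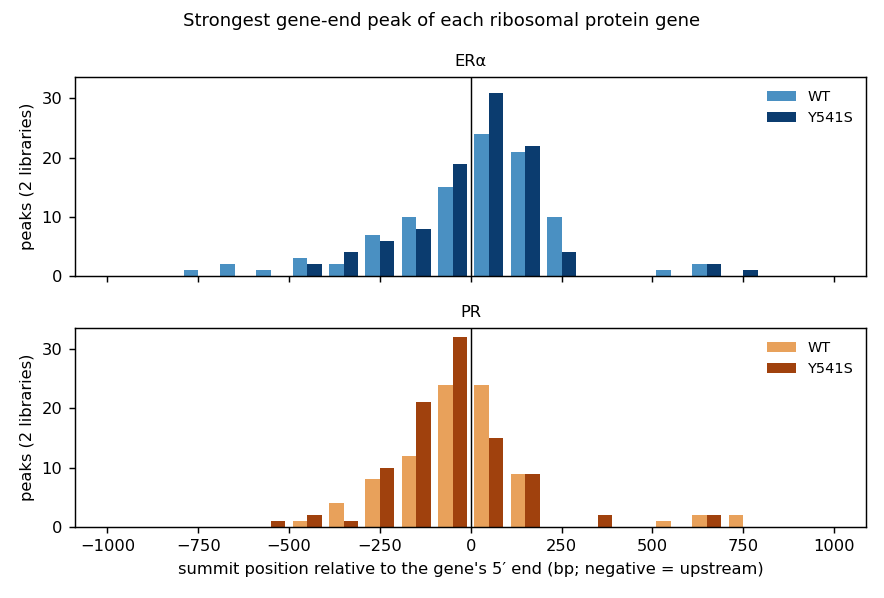
Number of members (y axis, both libraries of a group counted) by the distance of their strongest gene-end peak from the 5′ end (x axis, bp, negative upstream), for peaks nearer the 5′ end of the 58 members with a known strand. Bars are 100 bp classes of WT and Y541S; ERα (upper panel) is highest in the class just downstream of 0, and PR (lower panel) just upstream of 0 in Y541S and level on both sides in WT.

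ERα and PR peaks of a member mostly covered the same DNA. Where both receptors had a gene-end peak in the same genotype and replicate, the strongest peaks overlapped by at least 1 bp in 88.5 and 94.1% of members in WT and in 95.7 and 95.7% in Y541S. Over all coding genes the shares were 74.6, 79.9, 82.4 and 84.4%. The median distance between the summits was 101 and 138.5 bp in WT and 77 and 91 bp in Y541S, against 157, 170, 115 and 116 bp over all coding genes. Among the 58 members with 8 peaks, all 8 strongest summits fell within 250 bp of each other in 21 (36.2%), against 20.5% of the 6697 coding genes with 8 peaks. The median range of the summits was 317.5 bp in members and 464 bp over these coding genes.

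Gene-end peaks were missing in all libraries at 4 members, Rpl10l, Rpl32l, Rpl39l and Rps2 (29.0% of coding genes had none). Rpl10l and Rpl39l are paralogs used mainly in the testis. Rps27l had a peak in 1 library, Rpl17 and Rpl19 in 2 and Rpl22 in 5. For Rps2, a core small-subunit gene, the annotated span (chromosome 17, 24718121 to 24721927) begins 1942 bp upstream of the start in the RefSeq promoter table. The starts listed for Rps27l, Rpl18 and Rpl19 likewise lie 1462, 2604 and 4707 bp or more inside their spans. These are 4 of the 58 members with an entry, and the following recount was chosen after this was seen.

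With summits counted within 1 kb of a listed start, 55 and 54 of the 58 members had a peak for ERα in WT and 54 and 54 in Y541S, against 50.4, 48.7, 56.2 and 56.7% of 17492 coding genes. For PR there were 47 and 53 in WT and 54 and 54 in Y541S, against 40.9, 53.9, 54.4 and 57.2%. Of the 58, 54 had a peak in all 4 ERα libraries (41.5% of coding genes), 46 in all 4 PR libraries (37.2%) and 46 in all 8 (32.2%). Rps2 then had a peak in every library, with folds of 4.56 and 5.59 in the WT and 8.20 and 5.81 in the Y541S libraries of ERα, against 2.93 and 5.63 in the WT and 4.56 and 5.72 in the Y541S libraries of PR. Its ERα peaks ranked at 1.40 to 8.75% of their lists and its PR peaks at 15.7 to 52.7%. Rps27l had peaks in all 8 as well, Rpl18 and Rpl22 too, and Rpl19 in 7, missing from PR WT replicate 1. The 4 members without an ERα peak at a listed start in all 4 libraries were Rpl10l, Rpl32l, Rpl39l and Rpl3l, a paralog of Rpl3 used in striated muscle. Rpl10l, Rpl32l and Rpl39l had none in any library, and Rpl3l had 1 in ERα WT replicate 1 (fold 2.63, 25 bp from the start). The strongest gene-end peak of Rpl3l in each of the 8 libraries lay 48 to 879 bp beyond its 3′ end, and an end of Msrb1 is 450 bp from the gene. The 8 other members absent from the all-PR count, among them Rpl12, Rpl35 and Rps25, lacked a peak in 1 PR library each.

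Other genes of protein synthesis had gene-end peaks about as often. These lists were chosen with earlier results of the data known, and their counts are not independent. Fau and Mrpl49 had the same folds in every library, as did Mrpl46 and Mrps11. In all 8 libraries a peak stood at 9 of 11 cytosolic ribosomal protein genes that the symbol rule leaves out (such as Rplp0, of the ribosomal stalk, and Rps3a1), 59 of 78 mitochondrial ribosomal protein genes, 16 of 19 translation factors and other TOP mRNAs (Gas5, not protein-coding, was unmatched), 16 of 20 ribosome biogenesis genes and 11 of 14 regulators of ribosomal protein synthesis. The corresponding share of all coding genes was 30.6%. The share was 75.3% of the cytosolic members and 75.6% of the mitochondrial genes. In the lists of 20000 strongest peaks the lists spread further: 74.0% of the members were in all 4 ERα lists, 54.5% of the cytosolic genes outside the rule, 52.6% of the mitochondrial genes, 78.9% of the translation factors, 75% of the biogenesis genes and 57.1% of the regulators, against 17.4% of coding genes. In all 4 PR lists the shares were 3.90, 0, 2.56, 10.5, 10 and 14.3%, against 3.52%.

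Named by rank, the leading genes of these lists were Rps3a1, Rplp0, Rpl36al and Rpl22l1 outside the rule and Mrpl44, Mrpl30, Mrpl17 and Mrpl47 of the mitochondrial ribosome. Tpt1, Eif3f, Eif4b and Hnrnpa1 led the translation list, Bysl, Nolc1, Gar1 and Wdr12 the biogenesis list, and Rptor (an mTORC1 subunit), Eif4ebp1 (a repressor of eIF4E), Rps6 (itself a member, the substrate of S6 kinase) and Tsc1 the regulators. All 20 had a gene-end peak in all 8 libraries, which the ranking itself favours, since a missing peak was scored as last. For Tpt1, whose TOP mRNA encodes a translationally controlled protein, ERα folds were 5.29 and 4.62 in WT, and 7.31 and 6.85 in Y541S. Its PR folds were 5.46 and 6.52 in WT and 9.42 and 8.33 in Y541S. Both Y541S folds were the higher for each receptor, in the direction of the median folds of all coding genes.

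Markers of mammary cell types rarely had gene-end peaks throughout. None of 8 luminal, 6 basal, 6 adipocyte, 6 fibroblast and endothelial and 6 immune marker genes had a gene-end peak in all 8 libraries. All 4 ERα libraries had one at 4 of the 6 adipocyte genes and 1 of the 8 luminal genes, and at 0 genes of the other lists. All 4 PR libraries had one at 1 luminal and 2 basal genes. The share of all coding genes was 30.6% for all 8 libraries, 39.2% for all 4 ERα and 36.5% for all 4 PR libraries. Peaks do not measure expression, so the labelled tissue could not be checked from them.

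**Figure D5:**
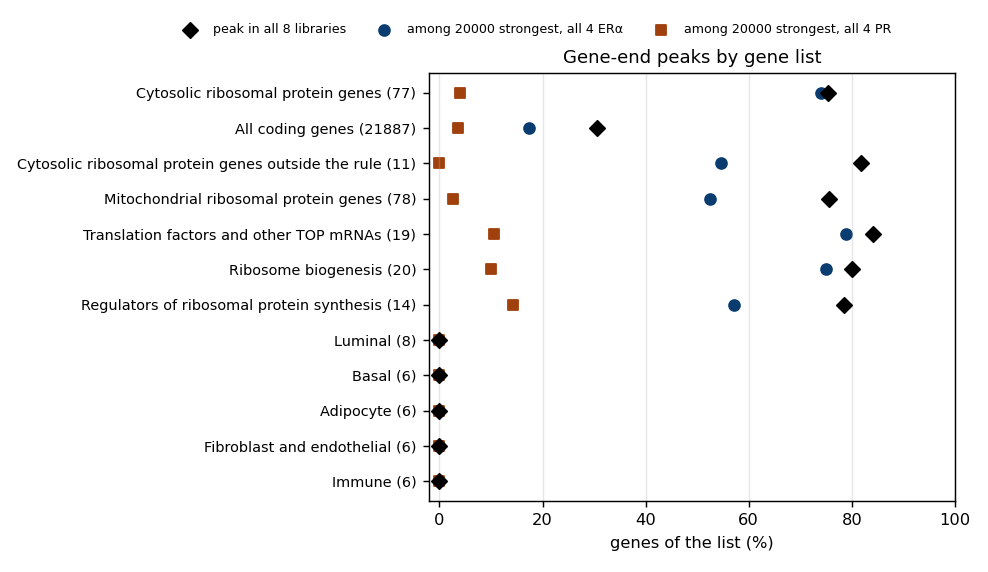
Percentage of genes (x axis) of each list (y axis, number of genes in brackets) with a gene-end peak in all 8 libraries (diamonds), among the 20000 strongest peaks of all 4 ERα lists (circles) and of all 4 PR lists (squares). Lists of protein synthesis lie between 75.3 and 84.2% for all 8 libraries, all coding genes at 30.6% and the cell type markers at 0%.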

How the data were processed

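Chromatin of formalin-fixed glands was precipitated with antibodies against ERα or PR, per the labels' protocols (4 µg for 30 µg of chromatin). The authors deposited 1 narrowPeak list per library; the submitters' processing notes name mm10 as the build. The aligner, the peak caller, any input and the handling of reads matching several places are not given in the sources used here. Ribosomal protein genes have many near-identical processed copies, so the last of these could bear on their peaks, which was not tested. Each deposited peak has a score, a fold enrichment (ratio) at the summit, a −log10 p and a −log10 q. Peak values were not scaled between libraries. They served to rank or filter within a list, and folds of several libraries are set side by side as a description, without a test. Coverage was recovered from the deposited fold and −log10 p with a tolerance of 1e-04, for 99.0% or more of the peaks of each list, and the 0.001 quantile of the expectation was taken as background.

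Genes and promoters came from RefSeq (GRCm38.p6, equivalent to mm10), without the mitochondrial genome. Strand was known for the members in the promoter table only. The members and lists were chosen with earlier results of these data known, so member counts carry no p-value and are set beside the share of all coding genes. Named genes were the 8 members with the best mean rank, those with no peak, the members of each genotype- or receptor-specific class (none), the tissue-restricted paralogs, and the 4 best-ranked genes of each pathway list; Rpl8 and the members of other small counts were named after their values were seen. The gene-end calls were tested on simulated data. Python 3.11.15, pandas 2.3.3, numpy 2.4.6 and scipy 1.17.1 were used. Alternatives were stricter thresholds, equally long lists, other windows, either end alone, members without a neighbour, and leaving out each library.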

Additional observations from a re-analysis of the deposited data

How the results depend on the processing

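Mean counts of members with a gene-end peak were within 1.5 times of the reported ones at −log10 q of at least 1.3, −log10 p of at least 5, windows of 0.5 and 5 kb, peak overlap, the 5′ end alone, listed starts and 60000 peaks. The alternatives below moved results; the cause was not tested.

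With 20000 peaks the PR means fell to 29 in WT and 23 in Y541S and 3 members were in all PR and in all 8 lists. There were 9 ERα-only members (3.28% of coding genes), 1 Y541S-only for ERα (2.32%) and 1 WT-only for PR (0.795%). ERα minus PR became 51.6 points (17.1 over coding genes), and Y541S minus WT 4.55 for ERα (4.68) and −7.79 for PR (−1.64). ERα minus PR, 1.62 as deposited (0.708 over coding genes), was 5.84 at 60000 peaks (6.16) and 6.17 with −log10 p from 5 up (−1.80), where Y541S minus WT for PR was 14.9 (13.9) and 2 members were Y541S-only for PR (3.69% of coding genes). At 0.5 kb Y541S minus WT for ERα was 4.55 (6.81 over coding genes). At 5 kb 1 member was PR-only (0.448%).

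At the 3′ end alone, among 58 members, means were 7.50 and 8 for ERα in WT and Y541S and 10.5 and 8.50 for PR. There were 4 members in all ERα, 6 in all PR and 4 in all lists and 1 PR-only (0.697% of coding genes). Apart from the PR-only class, these counts have no share of coding genes beside them and are no result about the members. ERα minus PR was −3.02 (−0.577 over coding genes) and Y541S minus WT for PR −3.45 (1.54). Among the 49 members without a neighbour, means were 42 and 43.5 for ERα in WT and Y541S and 41.5 and 43.5 for PR. Over coding genes the group means were 48.5, 56.0, 47.7 and 55.4% in the same order. There were 41, 38 and 37 members in all ERα, all PR and all lists (39.2, 36.5 and 30.6% of coding genes). Y541S minus WT for ERα was 3.06 (7.43 over coding genes). These counts are out of 49 members and not 77.

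Within replicate 1, Y541S minus WT for PR was 12.99 (12.3 over coding genes). There 10 members were Y541S-only for PR (15.6% of coding genes), 1 for ERα (9.97%), 1 WT-only for ERα (3.59%) and 1 PR-only (1.53%). Within replicate 2 it was −1.3 (3.02 over coding genes), with 1 member Y541S-only for PR (7.06%), 2 for ERα (12.1%) and 2 WT-only for PR (4.05%). A replicate block leaves the mean differences at 1.62, 1.3 and 5.84 points, as it must for equal numbers of libraries; the samples share a number, and a pairing is not stated.

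Leaving out each library in turn gave 0 to 1 WT-only members for ERα and 0 to 1 for PR. The 1 for ERα came without ERα Y541S replicate 2 (1.20% of coding genes) and the 1 for PR without PR WT replicate 1 (2.50%). Y541S-only members for ERα were 0 to 1 (6.13 to 7.41% of coding genes where there was 1). For PR they were 0 to 8. The 8 came without PR WT replicate 2 (12.6% of coding genes), where absence from WT rests on replicate 1 alone. Counts this near the share of coding genes are no result about the members. Members with a peak in all remaining lists ranged from 58 to 66, given without a share of coding genes. An absent peak may hold signal below the threshold, and the shallowest library had 0.927 reads of background coverage.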
